A study of Homo sapiens with 18 samples.

Results

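The established human prostate cancer lines CWR22Rv1 and DU145 were compared under control conditions, with 3 CWR22Rv1 arrays set against 3 DU145 arrays out of the 18 arrays of the series. Both groups carried a scrambled siRNA introduced with Lipofectamine 2000 and were harvested after 48 h, so the transfection itself is common to them. The remaining 12 arrays hold the same lines with siRNA against Stat3 or against Stat5a and Stat5b, 3 arrays for each line and siRNA. They entered the estimate of the spread and served as a repeat of the line comparison in other arrays. Each of 19740 genes was represented by its probe set with a single gene symbol and the highest mean over all 18 arrays. Values are deposited log2 expression values, differences are CWR22Rv1 minus DU145 on the log2 scale, and a ± after a difference is the standard error of the limma fit (3 arrays against 3). A gene was called at a Benjamini-Hochberg adjusted p under 0.05 over all genes, and called 2-fold when its difference was also 1 or more in size. The triplicates are not said to come from separate cultures, so p-values measure the spread between these arrays, which may be technical, and the line cannot be told apart from any culture or array run that goes with it.

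CWR22Rv1 was derived from a human prostate cancer xenograft that relapsed after castration of its mouse host, and retains androgen signalling and secretory features of luminal prostate cells. DU145 came from a prostate carcinoma that had spread to the brain, and grows independently of androgen. In luminal cells androgen signalling, aided by pioneer factors such as FOXA1, maintains secreted kallikreins and other prostate products. STAT factors are latent in the cytoplasm until a cytokine receptor and its JAK kinase phosphorylate them; STAT3 is the usual mediator of IL-6 family cytokines and STAT5 of prolactin and growth hormone, and SOCS proteins are induced as brakes. Both lines are single tumours' descendants, so a difference between them is a difference between these cell lines.

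Of all genes, 11252 were called between the lines (57.0%), 5918 of them higher (30.0%) and 5334 lower (27.0%) in CWR22Rv1. By the 2-fold rule 1898 genes were higher (9.61%) and 1982 lower (10.0%). Differences of 4 or more were found for 175 higher (0.887%) and 228 lower genes (1.16%), while the median over all genes was 0.03. For 12538 genes the 3 arrays of a line all lay beyond those of the other line (63.5%). Arrays of a group correlated at 0.993 to 0.998 across genes, and an array of CWR22Rv1 with one of DU145 at 0.911 to 0.915. The median gene SD was 0.0724 in CWR22Rv1 and 0.112 in DU145. The 3′ minus 5′ difference of the ACTB control probe sets, a measure of RNA integrity, was 0.76 ± 0.01 in CWR22Rv1 and 0.55 ± 0.08 in DU145 (SD, n = 3 each), and that of GAPDH 0.08 ± 0.02 and 0.10 ± 0.06; their part in the differences was not tested.

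**Figure D1:**
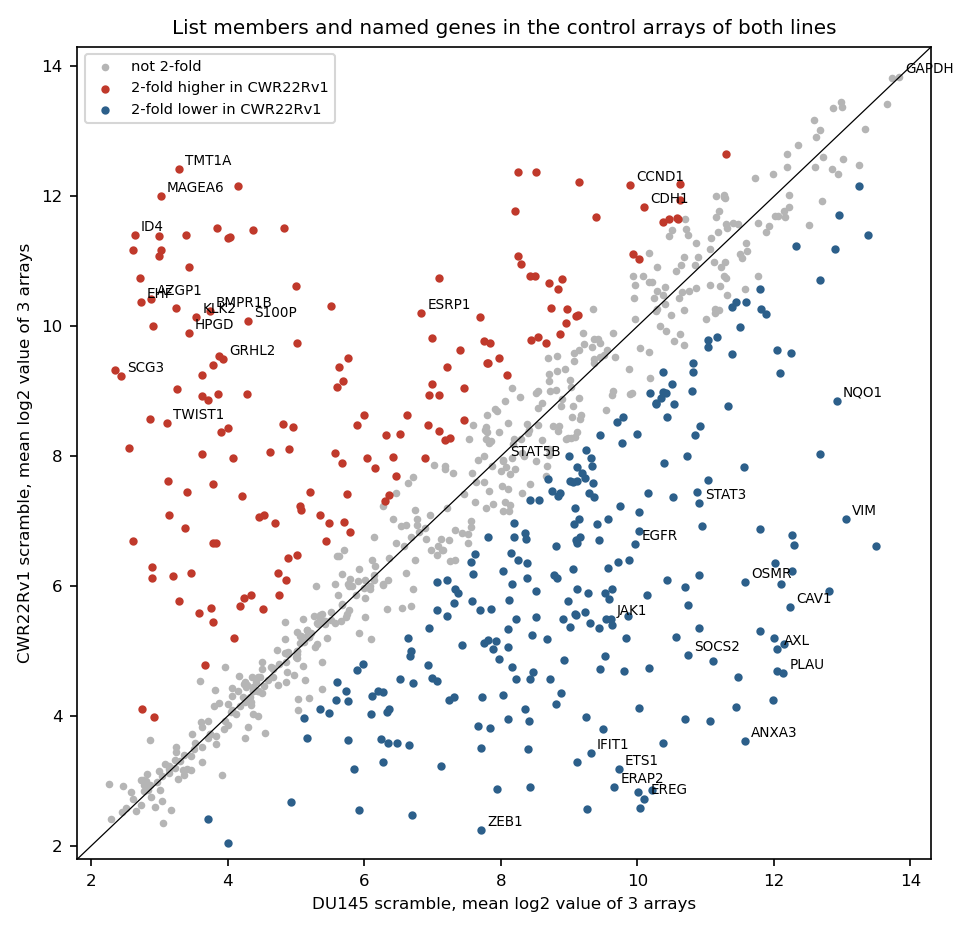
Mean log2 value of each list member or named gene in the 3 CWR22Rv1 scramble arrays (vertical axis) against the 3 DU145 scramble arrays (horizontal axis). Red points are called 2-fold higher and blue points 2-fold lower in CWR22Rv1, grey points are neither, and the line marks equal values, on which GAPDH lies with a difference of 0.01.

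The genes with the largest differences separated the lines by more than 100-fold. TMT1A, a methyltransferase, had 12.45, 12.42 and 12.38 in CWR22Rv1 against 3.32, 3.00 and 3.55 in DU145 (9.13 ± 0.15, adjusted p = 2.0e-17). ID4, an inhibitor of basic helix-loop-helix factors, had 11.46, 11.35 and 11.43 in CWR22Rv1 against 2.53, 2.83 and 2.55 in DU145 (8.77 ± 0.13). ALB, which encodes serum albumin and is known from liver, had 11.18, 11.14 and 11.17 in CWR22Rv1 against 2.84, 2.64 and 2.38 in DU145 (8.54 ± 0.10). In each case the DU145 values lay near the bottom of the deposited range, which ran from 1.544 to 14.302. In the other direction ANXA3, an annexin, had 4.14, 3.50 and 3.22 in CWR22Rv1 against 11.55, 11.54 and 11.63 in DU145 (-7.95 ± 0.19, adjusted p = 1.5e-15). CAV2, a caveolin that coats membrane pits, had 4.22, 4.49 and 4.02 in CWR22Rv1 against 11.81, 12.05 and 12.08 in DU145 (-7.73 ± 0.19). PLAU, the urokinase plasminogen activator, had 4.79, 4.38 and 4.80 in CWR22Rv1 against 12.10, 12.20 and 12.13 in DU145 (-7.48 ± 0.11). The 20 largest higher differences ended at EPHA3 (6.99) and also held LRATD1 (8.39), ZNF595 (8.15), WDR72 (8.10), the phosphatase PTPRB (8.03), the tetraspanin TSPAN8 (8.01), CBLN2 (7.66), CDYL2 (7.35), AFF3 (7.10), SYT4 (7.09) and SLITRK6 (7.03). The 20 largest lower differences ended at BNC1 (-6.69) and also held the lung gene SFTA3 (-7.46), the glycosyltransferase B3GNT5 (-7.36), EFEMP1 (-7.35), the galectin LGALS3 (-7.31), the retinoic acid synthase ALDH1A3 (-7.14), TM4SF1 (-6.87), CFAP251 (-6.78) and CELF2 (-6.74). LRATD1 and EPHA3 rest on their chosen probe set: among probe sets without the suffixes s, x or a, which mark possible matches to other transcripts, they measured -0.02 and 0.04.

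Androgen-responsive genes were mostly higher in CWR22Rv1. Of 23 measured members of that list, 15 were called 2-fold higher and 3 lower, with a median difference of 1.54 against 0.03 over all genes. KLK2, a secreted prostate kallikrein, had 10.12, 10.16 and 10.14 in CWR22Rv1 against 3.12, 3.88 and 3.63 in DU145 (6.59 ± 0.15, adjusted p = 8.0e-16, 96.6-fold). HPGD, which inactivates prostaglandins, had 9.92, 9.93 and 9.86 in CWR22Rv1 against 3.30, 3.14 and 3.84 in DU145 (6.48 ± 0.16). KLK4, another kallikrein, had 10.44, 10.75 and 10.68 in CWR22Rv1 against 4.65, 5.23 and 5.13 in DU145 (5.62 ± 0.18). No CWR22Rv1 array of these genes came near a DU145 array. ZBTB16 (5.14), the membrane peptidase FOLH1 (4.69), PMEPA1 (4.11), the secreted acid phosphatase ACP3 (3.78), the membrane protease TMPRSS2 (3.68) and TSC22D3 (2.82) were also higher. FKBP5, a co-chaperone of steroid receptors, was called but short of 2-fold on its chosen probe set (0.96 ± 0.08). Its other probe sets were called 2-fold higher (1.10 and 1.13). CAMKK2 (-0.29) and TRPM8 (-0.26) were not called. The drug transporter ABCC4 (-3.34), RAB3B (-2.58) and NDRG1 (-1.29) went the other way.

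KLK3, which encodes prostate-specific antigen, depended on the probe set. The chosen probe set had 6.70, 6.63 and 6.94 in CWR22Rv1 against 6.6, 6.72 and 6.75 in DU145, a difference of 0.06 ± 0.14 that was not called (adjusted p = 0.721). The other 2 KLK3 probe sets were far apart between the lines. One had 8.27, 8.30 and 8.14 in CWR22Rv1 against 5.11, 5.30 and 5.06 in DU145 (3.08 ± 0.15), and the other 8.06, 8.03 and 8.03 in CWR22Rv1 against 4.75, 5.36 and 4.43 in DU145 (3.19 ± 0.18). Their mean with the chosen one was 2.11. KLK2 had a probe set without suffix at a difference of 0.24, which was not called.

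The promoters of KLK2 and KLK3 hold the letters of an androgen response element, a hormone receptor half-site repeat, and are shown because they are the androgen-responsive genes of the list in which a script found that motif near the start. Both stretches run from -200 to -81 relative to the annotated start (RefSeq, GRCh38.p14, plus strand), at chr19:50873239-50873358 for KLK2 and chr19:50854715-50854834 for KLK3. Capitals mark matches on either strand to GNACA, 4 free bases and GTNC, with N for any base.
KLK2: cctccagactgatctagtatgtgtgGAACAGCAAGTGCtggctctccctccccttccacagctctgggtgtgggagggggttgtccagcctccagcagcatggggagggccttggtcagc
KLK3: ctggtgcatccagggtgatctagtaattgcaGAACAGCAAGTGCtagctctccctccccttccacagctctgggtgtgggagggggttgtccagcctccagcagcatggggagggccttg
The match begins at -175 in KLK2 and at -169 in KLK3. Of the 17 androgen-responsive genes with a promoter window of 300 bases, 2 held this motif, against 1.99% of 15358 promoters. It stood in 31 of 1514 promoters of 2-fold higher genes (2.05%) and in 25 of 1562 of 2-fold lower genes (1.6%). This window says nothing of enhancers further away.

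Luminal lineage transcription factors were higher too, 8 of 14 measured by 2-fold and 2 lower, with a median of 1.78. On the mean of each gene's probe sets 7 of 14 were higher with a median of 1.04, and without suffixed probe sets 6 of 12 with a median of 1.09. EHF, an epithelial ETS factor, had 10.34, 10.33 and 10.45 in CWR22Rv1 against 2.77, 3.02 and 2.40 in DU145 (7.64 ± 0.15, adjusted p = 1.2e-16). GRHL2, a grainyhead factor of epithelial cells, had 9.61, 9.35 and 9.54 in CWR22Rv1 against 3.90, 4.04 and 3.85 in DU145 (5.57 ± 0.16). FOXA1 had 9.51, 9.54 and 9.51 in CWR22Rv1 against 7.99, 8.02 and 7.90 in DU145 (1.55 ± 0.08). The nuclear receptor NR2F1 (4.44), ONECUT2 (3.21), SPDEF (2.17), SOX9 (2.01) and GATA2 (2.00) were higher, and TFAP2C (-2.60) and KLF5 (-1.79) lower. ELF3 was not called (-0.18).

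The luminal keratins did not go with the secretory genes that were higher. KRT8 and KRT18, the keratin pair of simple epithelia, were called slightly lower in CWR22Rv1 (-0.90 ± 0.10 and -0.43 ± 0.05), with values above 10 in every array of both lines. KRT7 had 5.26, 5.29 and 4.78 in CWR22Rv1 against 12.13, 12.17 and 12.15 in DU145 (-7.04 ± 0.16, adjusted p = 4.7e-16), and KRT19 was lower by a smaller step (-1.55). Several secretory and membrane products were higher: AZGP1, which encodes zinc-alpha-2-glycoprotein, had 10.44, 10.40 and 10.43 in CWR22Rv1 against 2.60, 3.05 and 2.98 in DU145 (7.55 ± 0.10). SPINK1 (5.31), CRISP3 (4.09), AGR2 (4.05), the metalloreductases STEAP2 (3.56) and STEAP1 (3.07), TSPAN1 (2.45), KLK11 (1.55) and MSMB (1.35) followed it. ANXA3 (-7.95) and PSCA (-1.07), which are listed with them and are no keratins, were 2-fold lower. Over the whole list of keratins and secretory genes, 10 of 20 were 2-fold higher and 4 lower (median 0.91), and without suffixed probe sets 7 of 15 were higher and 3 lower (median 0.46).

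Both lines carried epithelial junction genes, and 13 of 25 were 2-fold higher in CWR22Rv1, with 3 lower and a median of 1.07. On the mean of each gene's probe sets 9 of 25 were higher and 2 lower, with a median of 0.64. CDH1, the epithelial cadherin, had 11.83, 11.81 and 11.85 in CWR22Rv1 against 10.07, 10.15 and 10.07 in DU145 (1.74 ± 0.08, adjusted p = 4.1e-12). ESRP1, an epithelial splicing regulator, had 10.28, 10.14 and 10.21 in CWR22Rv1 against 6.97, 6.75 and 6.80 in DU145 (3.37 ± 0.08). The claudins CLDN7 (2.66), CLDN4 (2.12) and CLDN3 (1.35) and the protease PRSS8 (2.57) were higher. CLDN1 was the exception among claudins, with 5.49, 5.45 and 5.55 in CWR22Rv1 against 9.44, 9.57 and 9.59 in DU145 (-4.04 ± 0.12), and OCLN (-1.39) and TJP1 (-1.21) were lower as well. EPCAM stood at 11.70, 11.65 and 11.69 in CWR22Rv1 and at 10.99, 11.14 and 11.32 in DU145 (0.53 ± 0.08), so this epithelial adhesion gene was called but short of 2-fold.

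Mesenchymal genes were lower in CWR22Rv1, 14 of 25 by 2-fold against 2 higher, with a median of -2.77. VIM, the mesenchymal intermediate filament vimentin, had 7.12, 7.04 and 6.95 in CWR22Rv1 against 13.04, 12.99 and 13.14 in DU145 (-6.02 ± 0.07, adjusted p = 5.0e-19, 64.8-fold). ZEB1, a repressor of epithelial genes, had 2.27, 2.03 and 2.41 in CWR22Rv1 against 7.62, 7.54 and 7.96 in DU145 (-5.47 ± 0.13). AXL, a receptor tyrosine kinase, had 5.11, 4.93 and 5.06 in CWR22Rv1 against 12.22, 12.33 and 11.59 in DU145 (-7.02 ± 0.22). These groups of arrays lay far apart, with the widest spread in the DU145 arrays of AXL. TGFBI (-6.80), CAV1 (-6.57), the lysyl oxidase LOXL2 (-6.48), NNMT (-6.08), MSN (-5.55), CAVIN1 (-5.03), TWIST2 (-3.81), S100A4 (-3.80), SNAI2 (-2.77) and TAGLN (-2.21) were lower. TWIST1, another factor of this class, went the other way, with 8.64, 8.51 and 8.39 in CWR22Rv1 against 2.66, 3.09 and 3.57 in DU145 (5.40 ± 0.17), and PRRX1 was higher too (1.91). CDH2, the neural cadherin, differed by 0.34 ± 0.14, a call that was lost without any of 5 of the 6 scramble arrays. Over the 20 members with a probe set without suffix, 9 were lower and the median was -0.36.

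**Figure D2:**
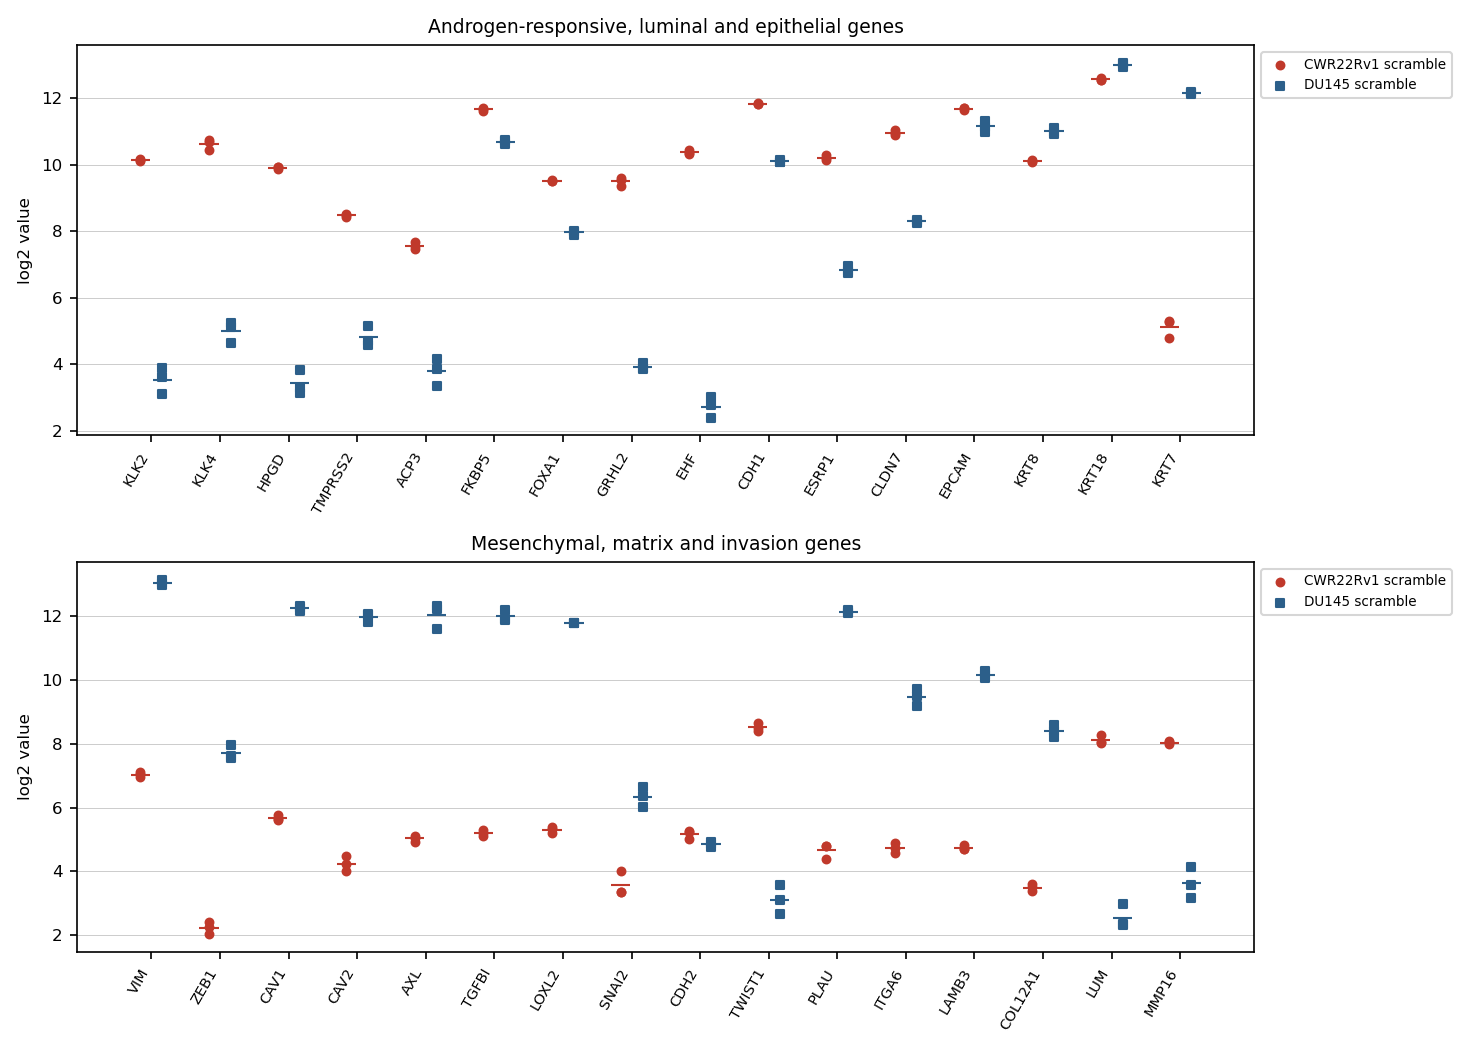
Log2 value in each scramble array, CWR22Rv1 as red circles at the left and DU145 as blue squares at the right of each gene, with short lines at the means of 3 arrays. The upper panel holds androgen-responsive, luminal and epithelial genes and the lower panel mesenchymal, matrix and invasion genes. KLK2 stood above 10 in CWR22Rv1 and under 4 in DU145, while VIM stood near 7 in CWR22Rv1 and near 13 in DU145.

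Of 12 basal epithelial genes 6 were 2-fold lower in CWR22Rv1 and none was 2-fold higher (median -1.10). The median was -0.69 on the mean of each gene's probe sets and -0.39 without suffixed probe sets, with 5 lower under either. LAMB3, a laminin chain of the basement membrane, had 4.69, 4.83 and 4.70 in CWR22Rv1 against 10.29, 10.15 and 10.07 in DU145 (-5.43 ± 0.13). S100A2 (-4.63), ITGB4 (-2.86), DST (-2.45), SERPINB5 (-2.27) and CD44 (-1.45) were the others. Among 28 collagens, laminins and other matrix genes 11 were lower and 2 higher, yet the median was 0.06. COL12A1 (-4.91), COL13A1 (-4.24), COL4A1 (-3.71), COL18A1 (-3.66), COL6A2 (-3.49) and COL4A2 (-3.20) were lower. LUM, the proteoglycan lumican, had 8.29, 8.02 and 8.07 in CWR22Rv1 against 2.99, 2.32 and 2.35 in DU145 (5.57 ± 0.18), and VCAN, which encodes versican, was higher as well (2.89). Without suffixed probe sets 6 of 22 matrix genes were lower and none was higher, with a median of -0.19.

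Receptors for the matrix were split. Of 19 integrins and matrix receptors 9 were 2-fold lower and 4 higher in CWR22Rv1 (median -0.61). ITGA6, a laminin receptor subunit, had 4.74, 4.57 and 4.90 in CWR22Rv1 against 9.18, 9.49 and 9.72 in DU145 (-4.73 ± 0.15), and ITGA3 (-4.32), ITGB2 (-4.02), SDC4 (-3.39), SDC1 (-3.14) and ITGA5 (-1.89) were lower. The syndecan SDC2 (3.46), ITGA1 (2.11), ITGB5 (1.73) and ITGB8 (1.12) were higher. With probe sets without suffix 5 of 17 were lower and the median was 0.06; ITGB4 then measured 0.06. Of 23 urokinase and metalloprotease genes 7 were lower and 2 higher (median -0.41). Beside PLAU, its receptor PLAUR (-2.73) was lower, as were the protease inhibitor TIMP2 (-6.26), ADAM12 (-2.66), ADAM19 (-2.53), HPSE (-1.53) and ADAM9 (-1.09). MMP16 (4.42) and ADAMTS1 (3.54) were higher.

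YAP and TAZ are coactivators that TEAD factors carry to DNA and that respond to adhesion and tension. Of 20 YAP and TEAD target genes 12 were 2-fold lower and 1 higher (median -2.58, or -1.64 on the mean of each gene's probe sets). NT5E, a cell surface nucleotidase, had 4.16, 4.18 and 4.01 in CWR22Rv1 against 9.87, 10.07 and 10.12 in DU145 (-5.91 ± 0.08, adjusted p = 1.1e-18). CCN1, a matricellular protein, had 6.88, 6.74 and 7.0 in CWR22Rv1 against 11.58, 11.84 and 11.98 in DU145 (-4.93 ± 0.11). Its relative CCN2 was the exception, with 12.40, 12.34 and 12.39 in CWR22Rv1 against 8.50, 8.46 and 8.59 in DU145 (3.86 ± 0.15). AMOTL2 (-4.36), TGFB2 (-4.07), PTPN14 (-4.01), WWTR1, which encodes TAZ (-3.42), LATS2 (-2.71) and TEAD1 (-1.74) were lower. YAP1 itself was called with a smaller step (-0.68).

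In TGF-beta and BMP signalling 6 of 24 members were 2-fold higher and 8 lower (median -0.17). TGFBR2, the type II TGF-beta receptor, had 5.19, 5.30 and 5.15 in CWR22Rv1 against 10.67, 10.63 and 10.40 in DU145 (-5.35 ± 0.09), and SMAD3 (-3.63), TGFB1 (-2.45) and TGFBR1 (-2.38) were lower, while TGFB3 was higher. BMP receptor BMPR1B had 10.30, 10.19 and 10.19 in CWR22Rv1 against 3.82, 3.70 and 3.69 in DU145 (6.49 ± 0.11). ID2 (2.35), BAMBI (1.94) and ID3 (1.32), which BMP signals induce in many cells, were higher. S100 and annexin genes, which bind calcium, were lower in 12 of 22 cases with 1 higher (median -1.41). On the mean of each gene's probe sets 10 of 22 were lower (median -0.99), and without suffixed probe sets 9 of 21 (median -0.99). ANXA2 had 6.71, 6.49 and 6.64 in CWR22Rv1 against 13.51, 13.48 and 13.50 in DU145 (-6.88 ± 0.09). ANXA1 (-6.03), S100A16 (-5.67) and S100A6 (-4.63) were lower, whereas S100P had 10.03, 10.17 and 10.04 in CWR22Rv1 against 4.22, 4.36 and 4.32 in DU145 (5.78 ± 0.07).

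Of the genes that the siRNAs target, STAT3 was lower in CWR22Rv1 and neither STAT5 gene was called on its chosen probe set. STAT3 had 7.40, 7.21 and 7.24 in CWR22Rv1 against 10.91, 10.96 and 10.82 in DU145, a difference of -3.62 ± 0.09 (adjusted p = 2.0e-15, 12.3-fold). Its other probe sets gave -4.74, -1.19 and -0.17, the last without a call. STAT5B had 8.0, 7.87 and 7.95 in CWR22Rv1 and 7.95, 8.01 and 8.16 in DU145 (-0.09 ± 0.09, adjusted p = 0.408), with overlapping arrays. STAT5A had 6.10, 6.37 and 6.44 in CWR22Rv1 and 6.18, 6.12 and 6.17 in DU145 (0.15 ± 0.13, adjusted p = 0.348), also overlapping. The other STAT5B probe sets gave 0.49 and -0.41 with a call and 0.25 and -0.01 without one. STAT4 (-3.21), and IRF9 (-1.45), the DNA-binding partner of the interferon-activated STATs, were lower, and STAT6 was called slightly higher (0.46). Of the kinases, JAK1 had 5.46, 5.57 and 5.45 in CWR22Rv1 against 9.61, 9.58 and 9.62 in DU145 (-4.12 ± 0.06, adjusted p = 6.7e-18, 17.3-fold). TYK2 (-0.79) and JAK3 (-0.77) were called short of 2-fold, and JAK2 was not called (0.06 ± 0.12). In all, 4 of the 10 measured members of this list (STAT3, STAT4, JAK1 and IRF9) were 2-fold lower and none was 2-fold higher (median -0.78). The median was -0.50 on the mean of each gene's probe sets.

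Among cytokine ligands, LIF and IL6 were lower in CWR22Rv1. LIF had 4.38, 4.36 and 4.97 in CWR22Rv1 against 8.89, 8.69 and 8.59 in DU145 (-4.15 ± 0.22), and IL6 had 4.41, 4.49 and 4.64 in CWR22Rv1 against 6.72, 6.85 and 6.59 in DU145 (-2.20 ± 0.13). OSMR, the oncostatin M receptor, had 6.08, 6.03 and 6.07 in CWR22Rv1 against 11.56, 11.70 and 11.47 in DU145 (-5.52 ± 0.07, adjusted p = 1.1e-18). The shared signal transducer IL6ST differed less, with 10.12, 9.91 and 9.95 in CWR22Rv1 against 11.46, 11.59 and 11.44 in DU145 (-1.50 ± 0.07), and IL6R (-1.09) and LIFR (-0.70) were called lower. Other cytokine receptors that were 2-fold lower were IL15RA (-2.74), IL4R (-2.63), IL22RA1 (-1.82), IL20RB (-1.53), IFNGR2 (-1.21) and IFNAR2 (-1.18). Of 23 cytokine receptors, 9 were lower and 1 higher (median -0.60). Among 14 ligands of the IL-6, prolactin and growth hormone families and their relatives, LIF, IL6 and IL15 (-1.59) were lower and TSLP was higher (3.39), with a median of -0.08. PRL, the gene of prolactin itself, was not called (0.23 ± 0.18). IL11, another cytokine of the IL-6 family, was not called on its chosen probe set (-0.13) and measured -2.18 on the other.

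GHR, the growth hormone receptor, was the 1 receptor of the list called 2-fold higher. It had 8.51, 8.43 and 8.42 in CWR22Rv1 against 5.11, 4.99 and 4.78 in DU145 (3.49 ± 0.15, adjusted p = 2.3e-12). PRLR, the prolactin receptor, was called at 0.48 ± 0.08 on its chosen probe set, short of 2-fold. Another PRLR probe set had 8.03, 8.05 and 8.17 in CWR22Rv1 against 3.06, 2.49 and 3.02 in DU145 (5.22 ± 0.12). Of the 7 PRLR probe sets 5 were called 2-fold higher in CWR22Rv1, none of them the chosen one. That probe set and the SOCS3 probe set given next were singled out after their values were seen. EPOR (0.73) was called short of 2-fold.

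Among 17 SOCS, PIAS and phosphatase brakes 3 were 2-fold lower and none higher (median -0.12), and on the mean of each gene's probe sets 2 were lower. With 10.0% of all genes 2-fold lower, these small counts do not set the list apart. SOCS2, which restrains growth hormone signals, had 5.12, 4.80 and 4.90 in CWR22Rv1 against 10.64, 10.83 and 10.76 in DU145 (-5.81 ± 0.15, adjusted p = 2.2e-15, 55.9-fold). The phosphatases PTPN2 (-1.56) and PTPN1 (-1.40) were lower. SOCS3, the brake on IL-6 receptors, was not called on its chosen probe set (-0.19 ± 0.12, adjusted p = 0.188). Another SOCS3 probe set had 2.75, 2.64 and 2.66 in CWR22Rv1 against 7.0, 7.0 and 6.88 in DU145 (-4.28 ± 0.13). CISH was called slightly higher (0.39), and SOCS1 was not called (0.07). Textbook STAT3 and STAT5 targets were mixed, 5 of 28 higher and 10 lower by 2-fold (median -0.23). The repressor BCL6 (2.83), the kinase PIM3 (2.29) and CCND1 (2.28) were higher; the mucin MUC1 (-4.72), FOSL1 (-4.64) and BCL2L1 (-1.49) were lower. A STAT site, TTCNNNGAA, stood in 6.95% of all promoters, in 6.34% of those of higher genes and in 6.21% of those of lower genes.

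**Figure D3:**
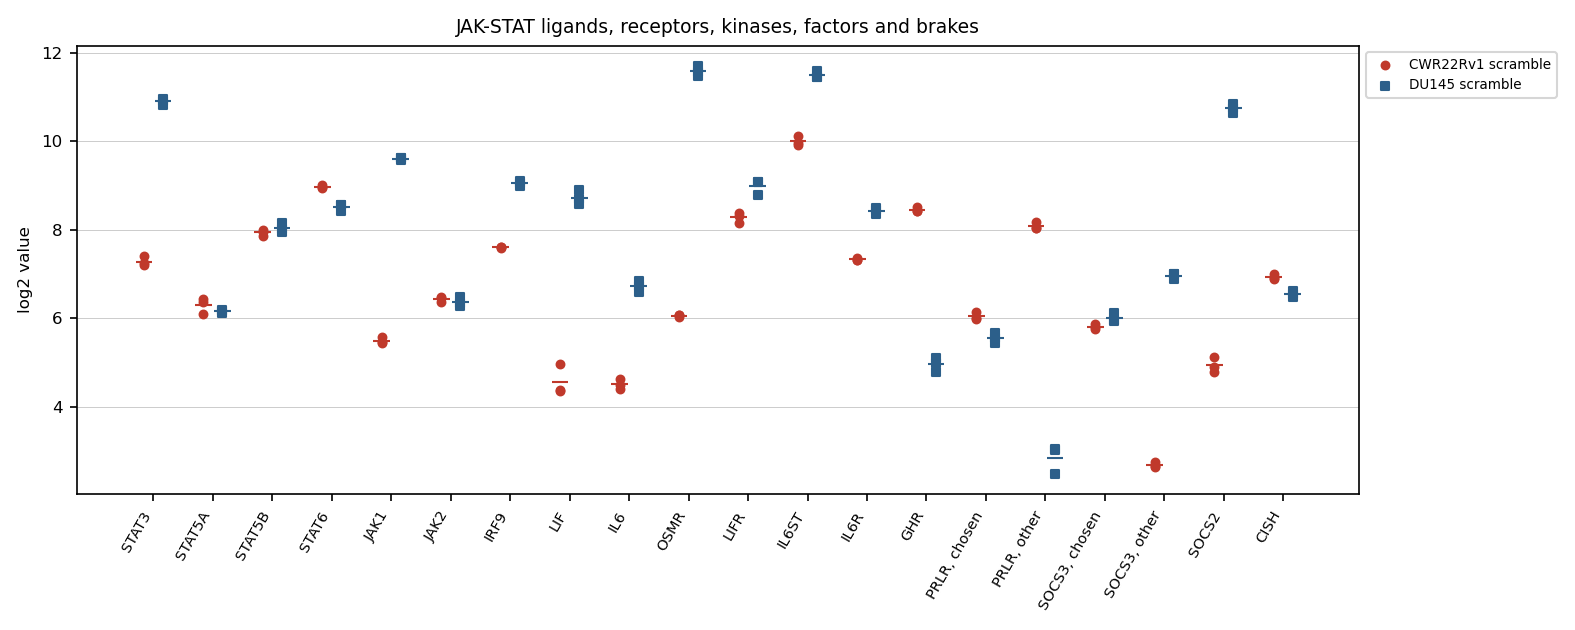
Log2 value in each scramble array for genes of JAK-STAT signalling, CWR22Rv1 as red circles at the left and DU145 as blue squares at the right, with lines at the means of 3 arrays. For PRLR and SOCS3 the chosen and another probe set are drawn; STAT3, JAK1, OSMR and SOCS2 were lower in CWR22Rv1 and GHR higher, while the arrays of STAT5A and STAT5B overlapped.

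Inflammatory and NF-kB genes were lower in CWR22Rv1, 18 of 28 by 2-fold with 2 higher and a median of -1.44. CXCL2, a neutrophil chemokine, had 3.29, 3.27 and 3.34 in CWR22Rv1 against 9.07, 8.95 and 9.31 in DU145 (-5.81 ± 0.17). IL18 had 2.95, 2.74 and 3.04 in CWR22Rv1 against 8.23, 8.55 and 8.50 in DU145 (-5.52 ± 0.12), and CXCL8 had 3.34, 3.59 and 3.59 in CWR22Rv1 against 7.25, 7.43 and 8.46 in DU145 (-4.21 ± 0.37). The CXCL8 values of DU145 spread over more than 1 log2 unit without reaching those of CWR22Rv1. CXCL5 (-5.07), TNFAIP2 (-4.28), the adhesion receptor ICAM1 (-3.78), IL32 (-3.39), CSF1 (-3.16), TNFAIP3 (-3.09) and NFKB1 (-1.45) were lower too. PTGS2, the inducible cyclooxygenase, was the exception, with 6.13, 6.08 and 6.16 in CWR22Rv1 against 2.90, 3.04 and 2.76 in DU145 (3.22 ± 0.11), as was SOD2 (1.09). With probe sets without suffix 10 of 21 were lower, with a median of -0.94.

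Interferon-stimulated genes were lower as a list, 17 of 37 by 2-fold against 2 higher, with a median of -0.92. IFIT1, which binds foreign RNA, had 3.43, 3.37 and 3.48 in CWR22Rv1 against 9.49, 9.44 and 9.03 in DU145 (-5.89 ± 0.18, adjusted p = 2.0e-14). IFI6 had 4.55, 4.61 and 4.90 in CWR22Rv1 against 10.15, 10.08 and 9.18 in DU145 (-5.11 ± 0.38). IFIT3 had 5.18, 4.91 and 5.11 in CWR22Rv1 against 8.16, 8.36 and 7.81 in DU145 (-3.04 ± 0.18). DU145 replicate 3 was the lowest DU145 array for all of these. HERC5 (-4.47), SAMD9 (-4.22), HERC6 (-3.66), IFIT2 (-3.43), MX1 (-3.41), IFI16 (-3.09) and IFI44 (-2.98) were lower. CMPK2, a mitochondrial nucleotide kinase, was an exception at 7.44, 7.34 and 7.39 in CWR22Rv1 against 3.94, 4.02 and 4.68 in DU145 (3.18 ± 0.14), and IFITM1 was higher too (1.66). ISG15, the ubiquitin-like modifier, had 11.36, 11.40 and 11.33 in CWR22Rv1 and 11.23, 11.26 and 10.75 in DU145, a difference of 0.28 ± 0.20 that was not called (adjusted p = 0.25).

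The promoters of IFIT1, IFIT3, IFI6 and ISG15 are shown because they share the interferon-stimulated response element, where interferon-activated STATs and IRF9 bind, while 3 of these genes were called lower and ISG15 was not called. Each stretch runs from -180 to -61 relative to the annotated start (RefSeq, GRCh38.p14), at chr10:89392443-89392562 for IFIT1, chr10:89327817-89327936 for IFIT3 and chr1:1013317-1013436 for ISG15, all on the plus strand, and at chr1:27672253-27672372 on the minus strand for IFI6. Capitals mark matches on either strand to GAAA, 2 free bases and GAAA; the matches in ISG15 overlap.
IFIT1: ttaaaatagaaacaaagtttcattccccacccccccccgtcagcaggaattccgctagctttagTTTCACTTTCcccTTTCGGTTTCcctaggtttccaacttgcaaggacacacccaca
IFIT3: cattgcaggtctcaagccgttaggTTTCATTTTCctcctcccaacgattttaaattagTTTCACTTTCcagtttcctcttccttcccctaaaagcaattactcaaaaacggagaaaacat
IFI6: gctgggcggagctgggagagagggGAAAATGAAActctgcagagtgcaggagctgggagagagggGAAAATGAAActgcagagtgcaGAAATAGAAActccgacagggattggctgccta
ISG15: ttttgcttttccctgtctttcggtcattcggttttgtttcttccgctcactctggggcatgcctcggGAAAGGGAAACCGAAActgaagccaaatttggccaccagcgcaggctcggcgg
This motif stood in 20 of the 29 interferon-stimulated genes with a promoter window (69%) and in 2.94% of all 15358 promoters. The 20 genes with it had a median difference of -1.53, with 11 lower and 1 higher by 2-fold, and the 9 without it a median of -0.26, with 3 lower and 1 higher. Over all genes with the motif, 15.9% were 2-fold lower and 6.86% higher, against 10.2% and 9.86% of all genes with a window.

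Antigen presentation genes were lower: 16 of 23 members were 2-fold lower, none was 2-fold higher and the median was -1.76. ERAP2, a peptidase that trims peptides for class I molecules, had 2.86, 2.95 and 2.91 in CWR22Rv1 against 9.64, 9.69 and 9.65 in DU145 (-6.75 ± 0.11, adjusted p = 1.5e-17, 108-fold). PSMB8, a subunit of the immunoproteasome, had 3.69, 4.02 and 3.68 in CWR22Rv1 against 9.54, 9.45 and 9.50 in DU145 (-5.70 ± 0.14). HLA-B had 9.29, 9.33 and 9.21 in CWR22Rv1 against 12.17, 12.11 and 11.98 in DU145 (-2.81 ± 0.09). PSMB9 (-3.55), HLA-C (-2.66), HLA-F (-2.49), TAPBP (-1.83), TAP2 (-1.76), HLA-E (-1.45) and TAP1 (-1.15) followed, and of class II genes HLA-DMA (-3.88) and CD74 (-2.77). NLRC5, an activator of class I genes, was lower (-1.91). B2M, the shared light chain, was called by a smaller step (-0.58). HLA probe sets can match related genes and alleles, so their values may mix them. With probe sets without suffix 10 of 16 were lower, with a median of -1.77. On the mean of each gene's probe sets 16 of 23 were lower, with a median of -1.25.

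**Figure D4:**
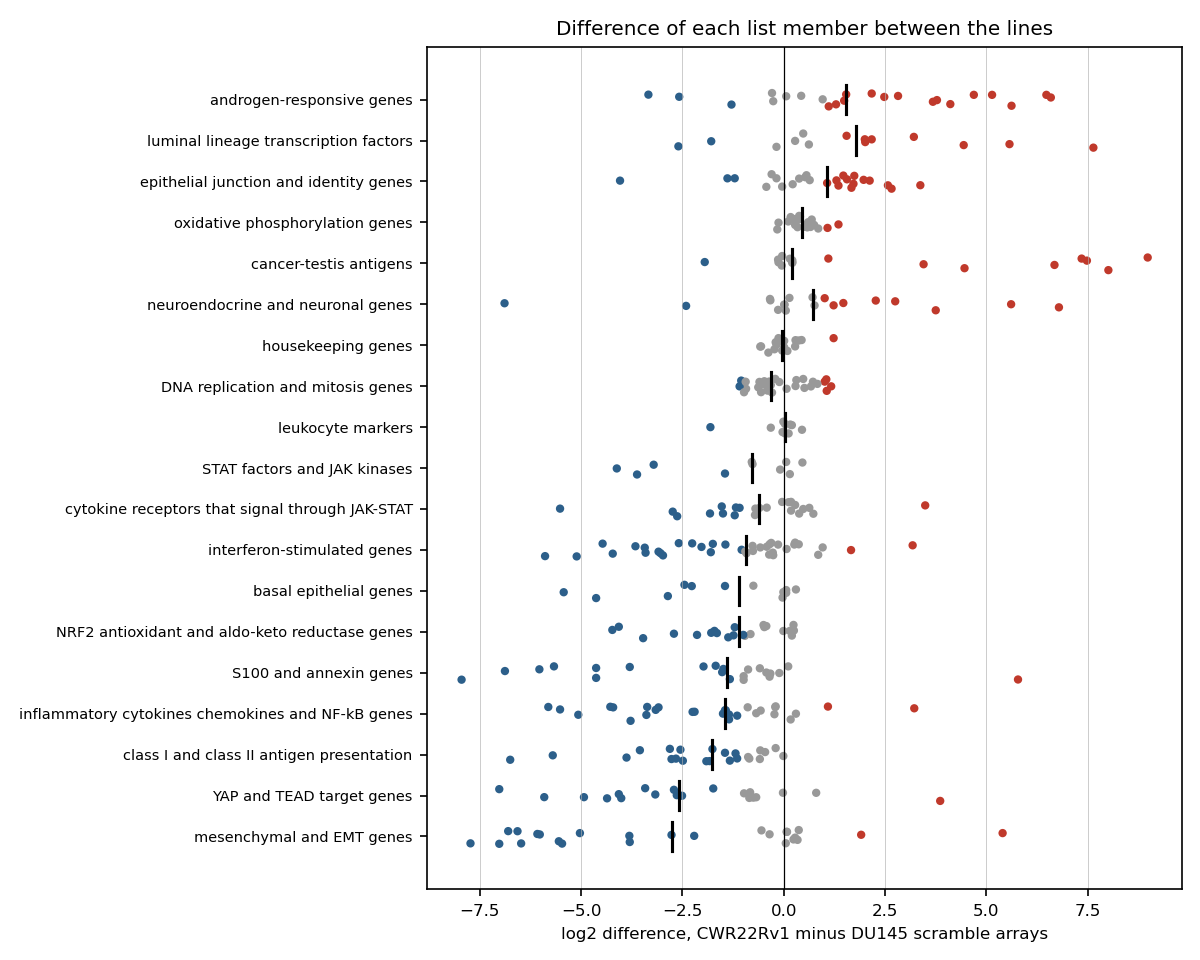
Difference of every measured member of 19 lists, CWR22Rv1 minus DU145 on the log2 scale, with red points at 1 or more, blue points at -1 or less and a black bar at each list's median. The medians ran from 1.78 for the luminal lineage transcription factors to -2.77 for the mesenchymal genes.

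Growth factor receptors differed in both directions, with 6 of 28 receptor tyrosine kinases 2-fold higher and 10 lower in CWR22Rv1 (median -0.08). EGFR had 6.74, 6.62 and 6.59 in CWR22Rv1 against 9.94, 10.06 and 9.92 in DU145 (-3.32 ± 0.08, adjusted p = 1.4e-15). MET, the receptor of hepatocyte growth factor, had 7.90, 7.81 and 7.77 in CWR22Rv1 against 11.36, 11.60 and 11.71 in DU145 (-3.73 ± 0.10). Their family members ERBB4 (3.94) and ERBB3 (2.28) and the receptors FGFR3 (3.75) and INSR (1.23) were higher, while IGF1R (-3.51), FGFR4 (-2.35), FGFR1 (-2.20), MST1R (-2.13) and EPHA2 (-1.99) were lower. ERBB2 was at the edge of the 2-fold rule (-1.0 ± 0.10). Of 30 growth factor ligands 13 were lower and 4 higher (median -0.66). EREG, an EGFR ligand, had 2.38, 3.02 and 2.80 in CWR22Rv1 against 9.94, 10.19 and 10.15 in DU145 (-7.36 ± 0.13). TGFA (-2.41) and HBEGF (-1.45) from that family were lower, as were FGF2 (-3.03), PDGFA (-2.91), VEGFC (-2.77) and GAS6 (-2.10), a ligand of AXL. FGF13 (5.78), HGF (3.90), GDF15 (3.47) and INHBA (1.51) were higher. With probe sets without suffix 3 receptors were higher and 7 lower of 22, and 2 ligands higher and 7 lower of 22 (median -0.27); GDF15 then measured 0.24.

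Wnt and Notch genes were divided, 8 of 29 higher and 10 lower by 2-fold (median -0.07). LEF1, a Wnt transcription factor, had 8.94, 9.02 and 8.91 in CWR22Rv1 against 4.18, 3.80 and 3.61 in DU145 (5.09 ± 0.28). That size rests on the chosen probe set, as the other LEF1 probe sets gave 0.27 and 0.90, called but short of 2-fold. The Notch targets HEY1 (2.24) and HES1 (1.82) and CTNNB1, which encodes beta-catenin (1.56), were higher. The Wnt inhibitors DKK3 (-5.26), SFRP1 (-4.16) and DKK1 (-1.81) were lower, as were FZD2 (-3.39), LGR4 (-3.00) and WNT5A (-2.14). Of 23 ETS factors and AP-1 members 5 were higher and 6 lower (median -0.04). ETS1 had 3.34, 3.31 and 2.93 in CWR22Rv1 against 9.37, 9.77 and 10.04 in DU145 (-6.54 ± 0.19, adjusted p = 1.1e-14), opposite to its relative EHF. FOSL1 (-4.64), FOSL2 (-4.09), ELK3 (-2.88), ETS2 (-2.78) and EGR1 (-1.44) were lower and ETV1 (2.17), ATF3 (2.00) and FOS (1.10) higher. With probe sets without suffix 4 of 20 Wnt and Notch genes were higher and 5 lower, LGR4 measured 0.05 and HES1 0.19. With these probe sets 3 of 19 ETS and AP-1 genes were higher and 6 lower.

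Cell cycle genes differed in part. Of 21 cyclins, CDKs and inhibitors 7 were 2-fold higher and 2 lower (median 0.78). CCND1, the cyclin of G1, had 12.21, 12.19 and 12.15 in CWR22Rv1 against 9.90, 9.81 and 10.00 in DU145 (2.28 ± 0.06). CDKN2A, the locus of the p16 inhibitor, had 9.66, 9.63 and 9.61 in CWR22Rv1 against 12.14, 12.08 and 11.92 in DU145 (-2.41 ± 0.08), and CDKN2B was lower as well (-2.05). RB1, which p16 acts through, was higher (1.08), as were E2F2 (1.59), CCNE2 (1.30), CDK6 (1.06), CDKN2D (1.04) and E2F7 (1.01). CDKN2D measured 0.14 without suffixed probe sets and was not called there. Without DU145 replicate 1 the number higher was 4, and with the mean of all probe sets of a gene it was 3. Of the 7 higher and 2 lower genes, 5 were again 2-fold in the Stat3 siRNA arrays and 5 in the Stat5a/b siRNA arrays. There RB1 gave 0.76 and 0.71, CCNE2 0.85 and 0.03, and CDK6 -0.12 and 0.52. The other RB1 probe set measured 0.52 in the scramble arrays. Replication and mitosis genes lay close to equal, 4 of 30 higher and 2 lower by 2-fold (median -0.31). Among all genes 9.61% were 2-fold higher and 10.0% lower, so these counts do not set the list apart. The replication factors CDC6 (1.17), GINS1 (1.06), GINS2 (1.05) and MCM7 (1.01) were higher and the mitotic genes AURKA (-1.09) and TOP2A (-1.05) lower, all by small steps. Of these 6 genes, 1 was again 2-fold in the Stat3 siRNA arrays and 2 were in the Stat5a/b siRNA arrays. Without suffixed probe sets 2 of 22 were higher and 1 lower, and after cyclic loess 4 of 30 were lower.

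Of 17 DNA repair genes 3 were 2-fold lower and none higher (median -0.24), and on the mean of each gene's probe sets 1 was lower. With 10.0% of all genes 2-fold lower, these small counts do not set the list apart. MGMT, which removes alkyl groups from guanine, had 4.61, 4.39 and 4.72 in CWR22Rv1 against 8.44, 8.32 and 8.53 in DU145 (-3.86 ± 0.22). MRE11 (-1.84) and MSH3 (-1.58) were lower on their chosen probe sets but measured 0.04 and -0.14 on those without suffix. Of 21 p53 target genes 4 were higher and 5 lower (median 0.43): TP53INP1 (2.62), SPATA18 (2.48) and MDM2 (1.63) joined GDF15, against PLK2 (-4.71), TP53I3 (-3.64), ZMAT3 (-1.65), TIGAR (-1.27) and PHLDA3 (-1.06). Without suffixed probe sets 2 of 15 were higher and 4 lower, and MDM2 measured 0.24 and was not called. In the BCL2 family and among death receptors 7 of 22 were lower and none was higher (median -0.45). BID (-3.29), BCL2A1 (-3.37), CASP8 (-2.70), TNFRSF10D (-2.26), BCL2L1 (-1.49), BOK (-1.13) and PMAIP1 (-1.12) made up that count. CASP8 and BOK turned to 0.18 and 0.01 on probe sets without suffix, where 4 of 20 members were lower and 1 higher (median -0.17).

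NRF2 target genes of the antioxidant response were lower, 12 of 22 by 2-fold and none higher, with a median of -1.11. On the mean of each gene's probe sets 10 of 22 were lower (median -0.87), and without suffixed probe sets 8 of 19 (median -0.86). NQO1, a quinone reductase, had 8.82, 8.89 and 8.84 in CWR22Rv1 against 12.95, 12.87 and 12.95 in DU145 (-4.07 ± 0.06, adjusted p = 4.6e-18). HMOX1, haem oxygenase, had 6.45, 6.43 and 6.33 in CWR22Rv1 against 9.86, 9.72 and 10.06 in DU145 (-3.47 ± 0.16). The transporter ABCC3 (-4.23), EPHX1 (-2.71), AKR1B10 (-2.14), GCLM (-1.79), TXNRD1 (-1.71), ABCC1 (-1.65) and ME1 (-1.37) were lower. Of 22 steroid metabolism genes 3 were higher and 1 lower (median 0.07): the glucuronidating enzymes UGT2B15 (2.61) and UGT2B28 (1.59) and HSD17B10 (1.18), against AKR1C3 (-1.21). UGT2B15 measured -0.05 without suffixed probe sets, where 1 of 19 members was higher and 1 lower, and probe sets of this family can match its relatives. Sterol and fatty acid synthesis held 3 of 22 higher and 2 lower (median 0.26), with SREBF1 (2.24), ELOVL6 (1.83) and MSMO1 (1.06) against FADS2 (-1.35) and SQLE (-1.08). Over all genes 9.61% were 2-fold higher and 10.0% lower, so the small counts of the steroid and sterol lists do not set them apart.

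Glycolysis and hypoxia genes were divided, 5 of 27 higher and 8 lower by 2-fold (median -0.20). The phosphofructokinase genes went opposite ways: PFKP had 6.55, 6.72 and 6.63 in CWR22Rv1 against 12.29, 12.19 and 12.41 in DU145 (-5.66 ± 0.09, adjusted p = 1.5e-17), and PFKM had 11.08, 11.12 and 11.13 in CWR22Rv1 against 9.91, 9.97 and 9.93 in DU145 (1.18 ± 0.07). PKM (-1.95), BNIP3 (-1.68), the glucose transporter SLC2A1 (-1.56), VEGFA (-1.23), EGLN3 (-1.18) and ENO1 (-1.09) were lower, and ALDOC (2.59), HK2 (2.02), CA12 (1.54) and ENO2 (1.01) higher; HK2 was not called on the mean of its probe sets (0.21), where 3 members were higher. Without suffixed probe sets 4 of 16 were higher and 5 lower. Oxidative phosphorylation genes were called higher in 17 of 20 cases and lower in 1, against 30.0% and 27.0% of all genes, but by small steps (median 0.45). Only COX5B (1.35) and NDUFA9 (1.08) passed 2-fold.

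Cancer-testis antigens, germline genes that tumours can switch on, were at high values in CWR22Rv1 for part of the list. Of 17 measured 8 were 2-fold higher and 1 lower, while the median was 0.21. MAGEA6 had 12.04, 11.97 and 12 in CWR22Rv1 against 3.12, 3.28 and 2.66 in DU145 (8.98 ± 0.16, adjusted p = 3.5e-17, 506-fold). MAGEA12 had 11.41, 11.37 and 11.41 in CWR22Rv1 against 3.28, 3.60 and 3.28 in DU145 (8.01 ± 0.19), and MAGEA4 had 11.51, 11.18 and 11.46 in CWR22Rv1 against 4.23, 4.16 and 3.70 in DU145 (7.35 ± 0.20). MAGEA1 (7.48), CTAG2 (6.68), SSX1 (4.46), BEX1 (3.45) and MAGEC2 (1.10) were higher and TKTL1 lower (-1.95). The MAGEA genes are related in sequence, so some of their probe sets may share signal, and with probe sets without suffix 3 of 12 members were higher and none lower.

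The promoters of MAGEA4 and MAGEA12 are shown because promoter methylation is known to silence this family in somatic cells. Both are the 150 bases before the annotated start (RefSeq, GRCh38.p14, plus strand), at chrX:151912324-151912473 for MAGEA4 and chrX:152733607-152733756 for MAGEA12, with each CG in capitals.
MAGEA4: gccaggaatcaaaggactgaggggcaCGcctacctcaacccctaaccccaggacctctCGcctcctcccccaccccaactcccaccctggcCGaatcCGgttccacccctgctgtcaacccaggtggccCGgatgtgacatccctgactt
MAGEA12: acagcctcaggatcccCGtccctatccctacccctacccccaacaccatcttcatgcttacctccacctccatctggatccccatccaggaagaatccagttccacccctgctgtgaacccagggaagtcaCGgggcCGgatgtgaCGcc
MAGEA4 held 5 and MAGEA12 4 CpG in these stretches, and 10 and 9 in the window of 300 bases. The median was 22 per window over all promoters, 23 for 2-fold higher and 27 for 2-fold lower genes. Genes that were higher by 4 or more had a median of 17. Methylation was not analysed here.

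Neuroendocrine and neuronal genes were higher in CWR22Rv1 in 8 of 19 cases and lower in 2 (median 0.71). Without suffixed probe sets 6 of 17 were higher and 2 lower, with a median of 0.20. SCG3, a secretory granule protein, had 9.31, 9.21 and 9.18 in CWR22Rv1 against 2.30, 2.53 and 2.48 in DU145 (6.79 ± 0.11, adjusted p = 1.3e-17). CHGB, another granule protein, had 9.35, 9.54 and 9.32 in CWR22Rv1 against 4.39, 3.26 and 3.73 in DU145 (5.61 ± 0.20). SNAP25 (3.75), SCG2 (2.75), SYP (2.27), DDC (1.47), CALCA (1.23) and ENO2 were higher, and CHGA was called short of 2-fold (0.71). UCHL1, a neuronal deubiquitinase, was the reverse, with 6.24, 5.67 and 5.84 in CWR22Rv1 against 12.80, 12.81 and 12.79 in DU145 (-6.89 ± 0.14), and SYT1 was lower too (-2.41). Axon guidance and adhesion genes were 2-fold higher in 10 of 28 cases and lower in 6 (median 0.25). ROBO1, a receptor of SLIT ligands, had 9.62, 9.45 and 9.55 in CWR22Rv1 against 4.22, 3.63 and 3.80 in DU145 (5.66 ± 0.12). PCDH7 (5.71), SEMA6A (4.73), CDH6 (2.83) and EFNB2 (2.22) were higher, and NTN4 (-7.18), CD24 (-5.47), NRP1 (-3.88), CADM1 (-2.53) and CDH3 (-1.47) lower.

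Few markers of other cell types were 2-fold different between the lines. Among all genes 9.61% were 2-fold higher and 10.0% lower, so the counts of these lists do not set them apart. Of 10 fibroblast markers LUM was higher and FBLN1 lower (-1.44), of 10 endothelial markers EGFL7 was lower (-1.37), and of 10 leukocyte markers CD14 was lower (-1.81); their medians were 0.07, -0.05 and 0.03. The leukocyte marker PTPRC stood at 3.22, 2.99 and 3.02 in CWR22Rv1 and at 2.96, 2.96 and 3.21 in DU145, and the endothelial cadherin CDH5 at 3.43, 3.36 and 3.38 in CWR22Rv1 and at 3.53, 3.49 and 3.36 in DU145. Of 21 genes restricted to other organs the glucagon gene GCG was higher (2.96) and MBP lower (-2.45), with a median of -0.02. Of 17 housekeeping genes CHMP2A was 2-fold higher (1.23) and none was 2-fold lower (median -0.04). GAPDH stood at 13.84, 13.84 and 13.84 in CWR22Rv1 and at 13.82, 13.82 and 13.87 in DU145.

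The choice of probe set mattered beyond KLK3, PRLR and SOCS3. Of 5221 other probe sets of the genes called 2-fold, 87.5% had the same direction as the chosen one, 43.3% were called 2-fold that way and 29 were called 2-fold the opposite way. A further 1018 genes were 2-fold different only on a probe set that was not chosen, 43 of them list members or named genes. These were singled out after their values were seen. LGR5 had 5.54, 5.26 and 5.57 in CWR22Rv1 against 2.20, 1.99 and 2.45 in DU145 on such a probe set (3.25 ± 0.11), and BCL2 had 4.96, 5.11 and 5.35 in CWR22Rv1 against 2.77, 2.85 and 2.69 in DU145 (2.37 ± 0.11). MKI67, the Ki-67 proliferation marker, gave -0.98 on its chosen probe set and -2.06, 0.27 and 0.27 on the others.

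Some differences lay side by side in the genome. The 8493 genes with a mean of 7 or more over all 18 arrays were ordered by position (RefSeq, GRCh38.p14). Windows of 21 neighbours among them had medians between -0.66 and 0.68 in the central 95%. Of these genes 12% were 2-fold higher and 12.6% lower. On chromosome 4 the 48 genes from ANAPC10 to FAT1 held 28 higher and 1 lower, with a median of 1.32. CPE, a prohormone carboxypeptidase, had 10.53, 10.47 and 10.45 in CWR22Rv1 against 7.15, 7.25 and 7.16 in DU145 (3.30 ± 0.08). GALNT7 (2.89), GUCY1B1 (2.75), FAT1 (2.09) and HMGB2 (2.05) lay in the same run. On chromosome 14 the 37 genes from IRF9 to PNN held 18 lower and 3 higher (median -0.93), and the 35 from FBXO33 to GMFB 16 lower and 3 higher (median -0.84). The first of these held NKX2-1, a transcription factor of lung and thyroid, with 4.53, 4.50 and 4.47 in CWR22Rv1 against 10.39, 10.49 and 10.16 in DU145 (-5.85 ± 0.12), SLC25A21 (-4.80) and NFKBIA (-1.35), but also FOXA1, which was higher. The second held FRMD6 (-3.74) and PYGL (-3.50). On chromosome 12 the 22 genes from LMO3 to CCDC91 held 11 higher and 3 lower (median 0.96), among them STK38L (1.96). The medians of these 4 runs in the Stat3 siRNA arrays were 1.22, -0.89, -0.89 and 0.99, in the order given. The runs were found by searching these values, so their medians are a description.

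The line difference was measured again in arrays that share no sample with the scramble arrays. Of the 1898 genes higher and 1982 lower by 2-fold, 1705 (89.8%) and 1777 (89.7%) were again so with Stat3 siRNA, where 10.0% and 9.87% of all genes passed, and 1604 (84.5%) and 1702 (85.9%) with Stat5a/b siRNA, where 9.74% and 9.89% passed. Read from the other side, they were 86.2% and 91.2% of the genes that passed with Stat3 siRNA, and 83.5% and 87.2% of those with Stat5a/b siRNA. CDK6 with Stat3 siRNA and EMB with Stat5a/b siRNA were the only 2-fold genes whose sign turned. The share of all 2-fold genes that passed in both repeats is not given here. Of 310 named genes that were 2-fold different, many of them named for the size of that difference, 279 were so in both repeats. KLK2, VIM, STAT3 and JAK1 were among them, while KRT4, CDC6, SQLE, FOS, HPSE and SOX9 were among the 31 that were not. STAT3 is itself the siRNA target in the Stat3 arrays, so its difference there is no repeat of the control difference.

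**Figure D5:**
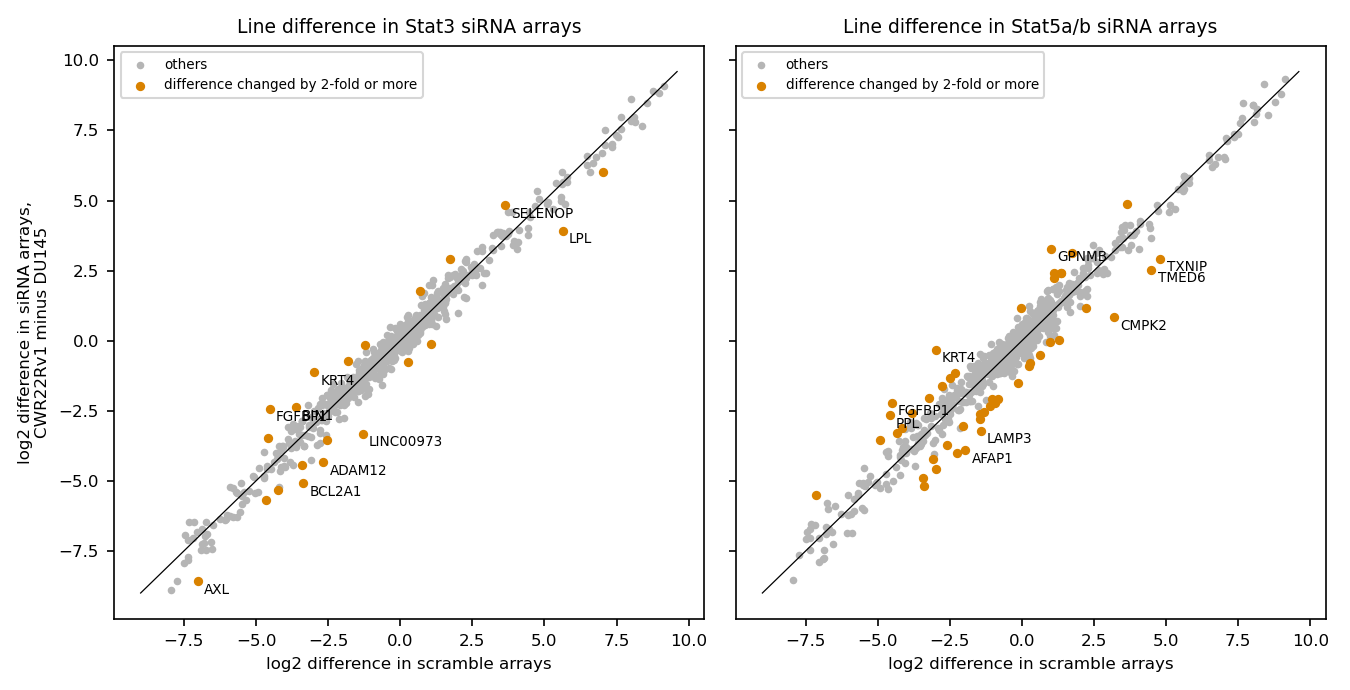
Line difference (CWR22Rv1 minus DU145, log2) of list members and named genes in the siRNA arrays against that in the scramble arrays, with Stat3 siRNA at the left and Stat5a/b siRNA at the right. Orange points are genes whose difference changed by 1 or more with an adjusted p under 0.05, and the line marks equal differences; CMPK2 lies under it with Stat5a/b siRNA, at 0.84 there and 3.18 in scramble arrays.

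The difference itself changed with siRNA for fewer genes. With Stat3 siRNA it changed for 596 genes (3.02%), for 50 of them by 2-fold or more (0.253%), and with Stat5a/b siRNA for 2353 genes (11.9%), for 133 by 2-fold or more (0.674%). CDH1 differed by 2.90 in the Stat3 arrays and by 3.13 in the Stat5a/b arrays, against 1.74 in the scramble arrays. Its difference was thus wider by 1.16 ± 0.11 (adjusted p = 1.0e-04) and by 1.40 ± 0.11 (adjusted p = 3.2e-06). FGFBP1, a secreted carrier of fibroblast growth factors, differed by -2.43 in the Stat3 arrays and -2.21 in the Stat5a/b arrays, against -4.52 in the scramble arrays, and was thus closer between the lines with either siRNA. AXL was further apart with Stat3 siRNA, at -8.58 against -7.02 in the scramble arrays (-1.56 ± 0.31, adjusted p = 0.012). IFIT2 and IRF9 were further apart with Stat5a/b siRNA, at -4.90 and -2.61 against -3.43 and -1.45 in the scramble arrays. Both siRNA comparisons share the scramble arrays, so they are not independent of each other.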

How the data were processed

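RNA of CWR22Rv1 and DU145 cells was hybridised to Affymetrix U133 Plus 2.0 arrays with 54675 probe sets. The authors deposited a log2 value for every probe set and array; RMA and limma are named in the submitters' processing notes, with no version, and RMA corrects background, quantile-normalises and summarises probes. No further scaling was applied. Detection calls played no part, so how far a value lies above background is unknown. RMA compresses small signals, so folds are on the scale of these values, and the number of arrays limits the precision.

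The platform annotation gave a single symbol to 41097 probe sets, several to 1801 and none to 11777. Y-linked genes and XIST were left out, and 19740 genes remained. In limma 3.58.1 (R 4.3.3) all 18 arrays entered 1 model with 6 group means (lmFit, then eBayes; residual degrees of freedom 12, prior 3.82), with two-sided tests and Benjamini-Hochberg adjustment over all genes. The standard error pools the spread of all groups. The procedure was tested on simulated data. Other probe sets were tested in a fit of all probe sets.

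The members and 42 gene lists (920 genes, 839 measured here) were chosen with earlier results of these data known. Named were the 20 largest differences each way among called genes with separate arrays, up to 6 members called 2-fold each way per list, a set of key genes, the 5 largest changes of the line difference each way per siRNA and genes of neighbouring runs. Promoters came from RefSeq for 15358 genes. Alternatives were other normalisations, probe set choices, filters, tests, a replicate block, and leaving out each array.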

Additional observations from a re-analysis of the deposited data

Results flagged for a closer look

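The line difference of 36 named genes changed by 2-fold or more with an siRNA in a test of the change itself (limma, adjusted p under 0.05), which gives 42 values. All are the log2 difference CWR22Rv1 minus DU145 in siRNA arrays minus that in scramble arrays. With Stat3 siRNA the change was positive for FGFBP1 (2.08), the keratin KRT4 (1.86), BIN1 (1.24), the selenium carrier SELENOP (1.20), CDH1 (1.16), the desmosome protein PPL (1.13), CD14 (1.07) and AKR1C3 (1.04). It was negative for LINC00973 (-2.02), BCL2A1 (-1.72), the lipase LPL (-1.71), ADAM12 (-1.68), AXL (-1.56), CDK6 (-1.18), COL13A1 (-1.08), FOSL1 (-1.06), SLITRK6 (-1.02) and ADAM19 (-1.0).

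With Stat5a/b siRNA the change was positive for KRT4 (2.66), FGFBP1 (2.30), GPNMB (2.27), PPL (1.92), ALDH1A3 (1.64), CDH1 (1.40), COL12A1 (1.38), ITGB8 (1.29), SELENOP (1.25), FZD7 (1.18), STAT4 (1.18), VEGFC (1.15), LIF (1.04) and ITGA3 (1.03). It was negative for the nucleotide kinase CMPK2 (-2.34), TMED6 (-1.96), AFAP1 (-1.94), TXNIP (-1.88), LAMP3 (-1.78), IFIT2 (-1.46), CCNE2 (-1.27), LINC00973 (-1.25), IRF9 (-1.16) and EFNB2 (-1.06). CDH1, FGFBP1, KRT4, PPL, SELENOP and LINC00973 appear under both siRNAs, which share the scramble arrays. Groups of 3 arrays were not tested for single arrays that stand apart.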

How the results depend on the processing

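Of 5118 values of named genes under other settings, 5050 kept their direction and their side of the adjusted p threshold. Of the rest, 60 lost the call, 1 gained it (KLK3, 2.11 on the mean of its probe sets) and 7 turned. A gene that kept its call but fell under 2-fold is not counted as a loss here. The 7 turned on probe sets without the suffixes s, x or a: LRATD1 -0.02, ITGB4 0.06, MRE11 0.04, CASP8 0.18, BOK 0.01, UGT2B15 -0.05 and LGR4 0.05; the cause was not tested. No named gene turned under quantile normalisation, cyclic loess or the loss of an array. On the mean of each gene's probe sets 1536 genes were 2-fold higher and 1666 lower in scramble arrays, against 1898 and 1982 on the chosen probe sets. Requiring more than 2-fold in the test itself (TREAT), which is stricter by construction, left 2857 genes in scramble arrays, 2905 in Stat3 and 2834 in Stat5a/b siRNA arrays, and 0 and 3 changes of the line difference with Stat3 and Stat5a/b siRNA. The count of Stat3 changes was 363 with probe sets without suffix, 951 over genes at 6 or more in either line and 907 with a trended robust fit. Leaving out each array gave 10496 to 11043 genes called in scramble arrays, with 1865 to 1953 higher and 1974 to 2019 lower by 2-fold, and for the changes 292 to 780 with Stat3 and 1669 to 2690 with Stat5a/b siRNA. The Stat3 count was lower by over 1.5 times without CWR22Rv1 scramble replicate 1, 2 or 3 (342, 300 and 303), CWR22Rv1 Stat3 siRNA replicate 1, 2 or 3 (292, 342 and 354) or DU145 scramble replicate 1 (371). Same-numbered scramble arrays of the lines did not deviate together (correlations of -0.0573, -0.0431 and 0.0164). Only scramble arrays were compared, across the lines, so this cannot show whether same-numbered arrays within a line belong together. A fit with replicate number as block called 11275 genes in scramble arrays, and 606 and 2397 changes with Stat3 and Stat5a/b siRNA. Of list values, 161 of 2016 moved by more than the spread between arrays or, for counts, by over 1.5 times.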
